A study of Mus musculus with 9 samples.

Results

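The 10 genes described here mark retinal ganglion cells or build the cytoskeleton of their axons. They are Rbpms, Pou4f1, Pou4f2, Pou4f3, Nefl, Nefm, Nefh, Sncg, Slc17a6 and Thy1, and they were taken by name, with every array probe whose RefSeq accession belongs to one of them. All 10 were measured, among 23862 genes tested in whole mouse retina. Their 13 probes, of 39429 on the array, were well above background on all 9 arrays.

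Retinal ganglion cells are the output neurons of the retina, and their axons form the optic nerve. Members of the Pou4f family of transcription factors direct their differentiation and survival, and Rbpms, an RNA-binding protein, labels nearly all of them. The neurofilament light, medium and heavy chains coassemble in large axons, while gamma-synuclein, the vesicular glutamate transporter of Slc17a6 and the surface protein of Thy1 are widely used markers. Their transcripts are commonly followed as a readout of ganglion cell injury.

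The study asked how gene expression in the retina responds to AAP and HAN, peptides that target vascular endothelial growth factor. Adult male C57BL/6 mice received PBS, AAP or HAN in the vitreous of the right eye, and retinas were taken 7 days later. A concentration of 1 µM is given in the labels, in wording that also covers PBS, the negative control. Each group held 12 mice, and the retinas of 4 eyes were pooled for each array, so that each group has 3 pools and 3 arrays. No group carried a transgene, an injury or a second agent in the labels, and no uninjected retina is among the 9 arrays.

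Levels are log2 intensities minus the 75th percentile of each array, so 0 is the intensity that 25% of that array's probes exceeded. The 75th percentile lay between 1340 and 2349 intensity units, and the share of spots well above background from 71.6% to 79.2%. Pearson r between arrays over all genes was 0.980 to 0.995 within groups and 0.979 to 0.995 between groups. The 3 PBS arrays and AAP 1 shared slide 1, AAP 2, AAP 3, HAN 1 and HAN 2 shared slide 2, and HAN 3 was on slide 3. Each slide was also its own scan. Transcripts of tissues beside the retina differed between pools: the log2 summed level of 9 skeletal muscle genes was 6.78 in AAP 1 and 5.42 in AAP 3 and between -0.90 and -0.24 in the other 7, and that of 8 lens genes was 6.11 in PBS 2, 7.29 in AAP 1, 6.37 in AAP 3 and 8.97 to 9.96 elsewhere. That of 5 cornea genes was 6.40 in AAP 1, 4.99 in PBS 1 and 1.22 to 3.89 elsewhere, and that of 5 pigment epithelium genes was 6.12 in AAP 1, 4.35 in HAN 3 and 4.83 to 5.10 elsewhere. The part of any of these tissues in the values below was not tested.

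None of the 10 genes passed the test in either peptide group. All 10 had higher means than PBS in AAP and in HAN, by 1.03-fold to 1.24-fold in AAP and by 1.05-fold to 1.26-fold in HAN. Both comparisons use the same 3 PBS arrays, so their directions are not independent of each other. The group means ran in the order PBS, AAP, HAN for 7 genes and PBS, HAN, AAP for Nefm, Nefh and Sncg, and no step in these orders passed the test. A whole-retina array cannot tell fewer or more ganglion cells apart from less or more RNA per cell.

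**Figure D1:**
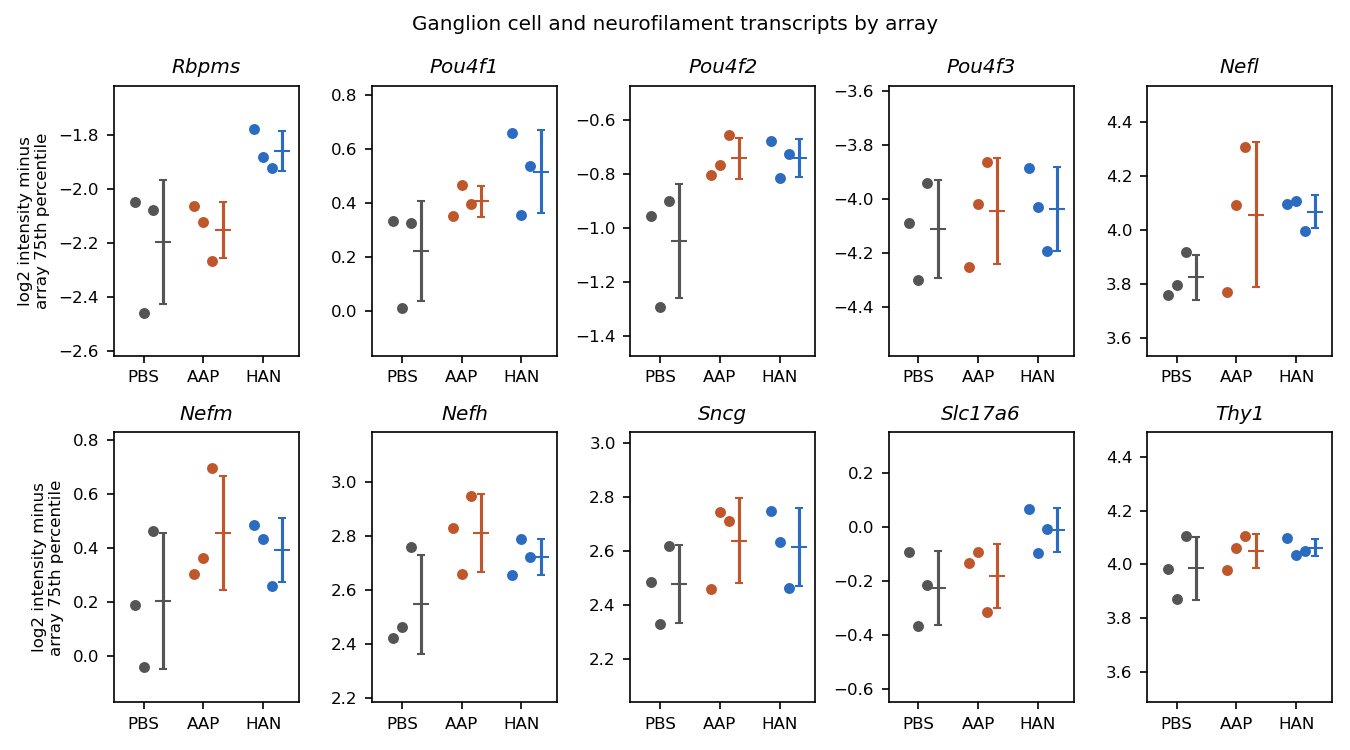
Log2 level minus the array's 75th percentile (vertical axis) of each of the 10 genes in the PBS, AAP and HAN groups, with 1 point per array and the mean with its SD (n = 3) beside the points. The vertical axes share a span of values but not a position. PBS 2 is the lowest point for 8 genes, and the HAN points of Rbpms lie above all other points.

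Among the regulators, Rbpms, whose protein binds RNA in ganglion cells, was at -2.05, -2.46 and -2.08 in the PBS arrays, at -2.06, -2.12 and -2.27 in the AAP arrays and at -1.78, -1.88 and -1.92 in the HAN arrays. The HAN arrays were all above the other 6, and the AAP arrays lay within the span of the PBS arrays. HAN minus PBS was 0.34 (95% interval 0.06 to 0.61, limma adjusted p = 0.461), which did not pass. For AAP minus PBS it was 0.04 (-0.23 to 0.32, limma adjusted p = 0.956). AAP minus HAN was -0.29 (-0.57 to -0.02, limma adjusted p = 0.574), the lowest of the 10 genes in that comparison.

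The array carries 3 probes for Rbpms, and they are given as separate measurements. Of the others, one gave AAP minus PBS at -0.10, HAN minus PBS at 0.12 and AAP minus HAN at -0.22. The other gave 0.03, 0.31 and -0.28. The probes therefore shared the direction in HAN minus PBS and in AAP minus HAN but not in AAP minus PBS. Rbpms is also expressed in vascular smooth muscle. The log2 summed level of 6 smooth muscle and pericyte genes was 1.69 to 2.40 in PBS, 0.77 to 1.87 in AAP and 1.80 to 1.92 in HAN, lowest in AAP 3, which was also the lowest AAP array for Rbpms. The part of those cells in the Rbpms values was not tested.

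Pou4f2, the transcription factor required for the differentiation of most ganglion cells, was at -0.96, -1.29 and -0.90 in PBS. It was at -0.80, -0.76 and -0.66 in AAP and at -0.68, -0.82 and -0.72 in HAN. Every peptide array was above every PBS array, and the peptide groups overlapped. The difference from PBS was 0.31 in AAP (0.06 to 0.56, limma adjusted p = 0.686) and 0.31 in HAN (0.06 to 0.56, limma adjusted p = 0.460). AAP minus HAN was -0.0028 (-0.25 to 0.25, limma adjusted p = 0.993).

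Pou4f1, a second Pou4f factor, found in many mature ganglion cells, was at 0.33, 0.01 and 0.33 in PBS, at 0.35, 0.47 and 0.40 in AAP and at 0.66, 0.35 and 0.54 in HAN. Again no peptide array was below a PBS array, but the lowest AAP and HAN arrays lay just above PBS 1 and PBS 3, and PBS 2 stood lower. HAN minus PBS was 0.29 (0.03 to 0.55, limma adjusted p = 0.483), and AAP minus PBS was 0.18 (-0.08 to 0.44, limma adjusted p = 0.783). The peptide groups differed by -0.11 (-0.37 to 0.15, limma adjusted p = 0.724).

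Pou4f3, the member of the family also needed in the hair cells of the ear, was the exception among these factors. It was at -4.09, -4.30 and -3.94 in PBS, at -4.25, -4.02 and -3.86 in AAP and at -3.88, -4.03 and -4.19 in HAN. All 3 groups overlapped. AAP minus PBS and HAN minus PBS were both 0.07, with intervals of -0.25 to 0.38 and -0.24 to 0.39 (limma adjusted p = 0.937 and 0.894). With normexp background correction, chosen after seeing the data, HAN minus PBS was 0.64 and AAP minus HAN was -0.49 (limma adjusted p = 0.533 and 0.663), so the size of the Pou4f3 difference in HAN depended on how background was treated.

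Pou4f1 and Pou4f2 varied together over the 9 arrays, and Slc17a6 varied with Rbpms and Pou4f1, as described below. Their 5′ flanks are shown to set these genes side by side, from RefSeq, build GRCm38.p6. Windows of 4 of the 10 genes were searched: Pou4f1, Pou4f2, Slc17a6 and Sncg. The search left out a chromosome, and windows of the other genes are not reported here. The windows hold the bases before the annotated gene, 250 bases for Pou4f2 (chr8:78436648-78436897, minus strand) and Slc17a6 (chr7:51621580-51621829, plus strand) and 131 bases for Pou4f1 (chr14:104468119-104468249, minus strand). Capitals mark the GC box, GGGCGG or its reverse complement CCGCCC, with overlapping matches each counted.
Pou4f2: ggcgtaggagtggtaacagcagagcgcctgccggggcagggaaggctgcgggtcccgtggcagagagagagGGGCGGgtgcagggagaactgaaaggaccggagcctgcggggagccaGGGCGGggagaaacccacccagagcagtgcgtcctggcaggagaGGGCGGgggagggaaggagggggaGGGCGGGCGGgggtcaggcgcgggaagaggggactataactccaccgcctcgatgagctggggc
Pou4f1: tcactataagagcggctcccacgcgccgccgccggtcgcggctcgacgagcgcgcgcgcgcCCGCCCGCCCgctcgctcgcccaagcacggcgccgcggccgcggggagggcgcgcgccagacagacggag
Slc17a6: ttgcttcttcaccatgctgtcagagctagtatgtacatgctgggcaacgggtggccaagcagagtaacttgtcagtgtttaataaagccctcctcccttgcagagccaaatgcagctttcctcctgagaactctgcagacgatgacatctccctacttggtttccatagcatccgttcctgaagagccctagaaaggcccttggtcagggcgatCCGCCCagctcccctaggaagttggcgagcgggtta

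The GC box occurred 5 times in the Pou4f2 window, 2 times in the shorter Pou4f1 window and 1 time in those of Slc17a6 and Sncg. It was present in 32.7% of 32851 RefSeq promoter windows of 250 bases. GC content was 80.9% for Pou4f1 and 70.8% for Pou4f2, above 99.1% and 91.7% of those windows. The Pou4f1 window, at 131 bases, is shorter than those it is ranked against, so its rank is not like for like. GC content was 53.2% for Slc17a6, close to the median of 52.4%. The CCAAT box (CCAAT), the TATA box (TATAAA) and a core of POU4 sites (ATTAAT) were searched on both strands and were not in the 4 windows. They were in 33.8%, 12.4% and 4.39% of all windows, respectively.

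Of the neurofilament chains, Nefl, which encodes the light chain that every neurofilament needs, was at 3.76, 3.80 and 3.92 in PBS. It was at 3.77, 4.09 and 4.31 in AAP and at 4.10, 4.11 and 3.996 in HAN. The HAN arrays were above all PBS arrays, whereas AAP 1 lay with PBS and AAP 3 was the highest of the 9. The difference from PBS was 0.23 in AAP (-0.06 to 0.53, limma adjusted p = 0.758) and 0.24 in HAN (-0.05 to 0.54, limma adjusted p = 0.579). AAP 1, the AAP array on the PBS slide, stood at -0.05 against the PBS mean, and the mean of AAP 2 and AAP 3, both on slide 2, at 0.38.

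Nefh, the heavy chain, was at 2.42, 2.46 and 2.76 in PBS, at 2.83, 2.66 and 2.95 in AAP and at 2.65, 2.79 and 2.72 in HAN. PBS 1 and PBS 2 were below all peptide arrays, and PBS 3 was inside both peptide groups. AAP minus PBS was 0.27 (0.01 to 0.52, limma adjusted p = 0.726), and HAN minus PBS was 0.17 (-0.08 to 0.43, limma adjusted p = 0.639). A second Nefh probe gave 0.01 for AAP minus PBS and -0.03 for HAN minus PBS, so the probes of this gene disagreed in size in AAP minus PBS and in direction in HAN minus PBS.

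Nefm, the medium chain, was at 0.19, -0.04 and 0.46 in PBS, at 0.31, 0.36 and 0.70 in AAP and at 0.49, 0.43 and 0.26 in HAN. The groups overlapped, with PBS 2 lowest and AAP 3 highest. Against PBS, AAP was higher by 0.25 (-0.10 to 0.60, limma adjusted p = 0.778) and HAN by 0.19 (-0.16 to 0.54, limma adjusted p = 0.727). The Nefm probe was printed 10 times on each array, which separates the spread of spots from that of pools: the SD over spots was 0.058 to 0.16 by array, and the SD between pools of a group, each pool averaged over its spots, was 0.20. AAP minus HAN was 0.06 for Nefm, 0.09 for Nefh and -0.01 for Nefl (limma adjusted p = 0.883, 0.769 and 0.979).

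Sncg, gamma-synuclein, a small axonal protein, was at 2.49, 2.33 and 2.62 in PBS, at 2.46, 2.74 and 2.71 in AAP and at 2.75, 2.63 and 2.46 in HAN. The groups overlapped: AAP 1 and HAN 3 lay below PBS 1 and PBS 3, and the other 4 peptide arrays lay above every PBS array. Against PBS, AAP was higher by 0.16 (-0.11 to 0.43, limma adjusted p = 0.818) and HAN by 0.14 (-0.13 to 0.41, limma adjusted p = 0.743). Sncg is also made in fat, and 3 of 5 adipocyte genes, Adipoq, Cidec and Lep, had no probe well above background throughout any group. The other 2, Fabp4 and Plin1, had higher means in AAP than in PBS, by 0.62 and 0.57 (limma adjusted p = 0.739 and 0.843). The log2 summed level of these 2 genes was -0.72 to -0.49 in PBS, -0.62 to 0.81 in AAP, highest in AAP 1, and -0.50 to -0.27 in HAN. AAP 1 was the lowest AAP array for Sncg, and the part of fat in the Sncg values was not tested.

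Slc17a6, which loads glutamate into synaptic vesicles, was at -0.09, -0.37 and -0.22 in PBS, at -0.13, -0.10 and -0.32 in AAP and at 0.06, -0.10 and -0.01 in HAN. HAN 1 and HAN 3 were the highest arrays, HAN 2 lay just below PBS 1, and AAP lay within PBS. HAN minus PBS was 0.21 (-0.01 to 0.43, limma adjusted p = 0.526), AAP minus PBS was 0.04 (-0.17 to 0.26, limma adjusted p = 0.942) and AAP minus HAN was -0.17 (-0.39 to 0.05, limma adjusted p = 0.597). Slc17a6 and Rbpms thus had the smallest differences of AAP from PBS and the lowest values of AAP minus HAN among the 10 genes.

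Thy1, a surface glycoprotein of ganglion cells, was the least variable. It was at 3.98, 3.87 and 4.11 in PBS, at 3.98, 4.06 and 4.11 in AAP and at 4.10, 4.04 and 4.05 in HAN, and the groups overlapped. AAP minus PBS was 0.06 (-0.11 to 0.23) and HAN minus PBS was 0.08 (-0.10 to 0.25; limma adjusted p = 0.875 and 0.784). The SD within groups was 0.0789, below that of most genes (17.8th percentile), against 0.202 for Nefm (70.3rd percentile) and a median of 0.132 over all genes. Thy1 is also found on T cells, of whose 7 listed genes Cd3d, Cd3g, Cd2 and Cd8a had no probe well above background throughout any group. The other 3, Cd3e, Lck and Cd4, were well above background on all 9 arrays and had lower means in both peptide groups than in PBS, with 0 passing (limma; 0 and 1 at an unadjusted p under 0.05). Their log2 summed level was 2.47 to 2.53 in PBS, 2.30 to 2.54 in AAP and 2.28 to 2.34 in HAN, and the part of T cells in the Thy1 values was not tested.

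**Figure D2:**
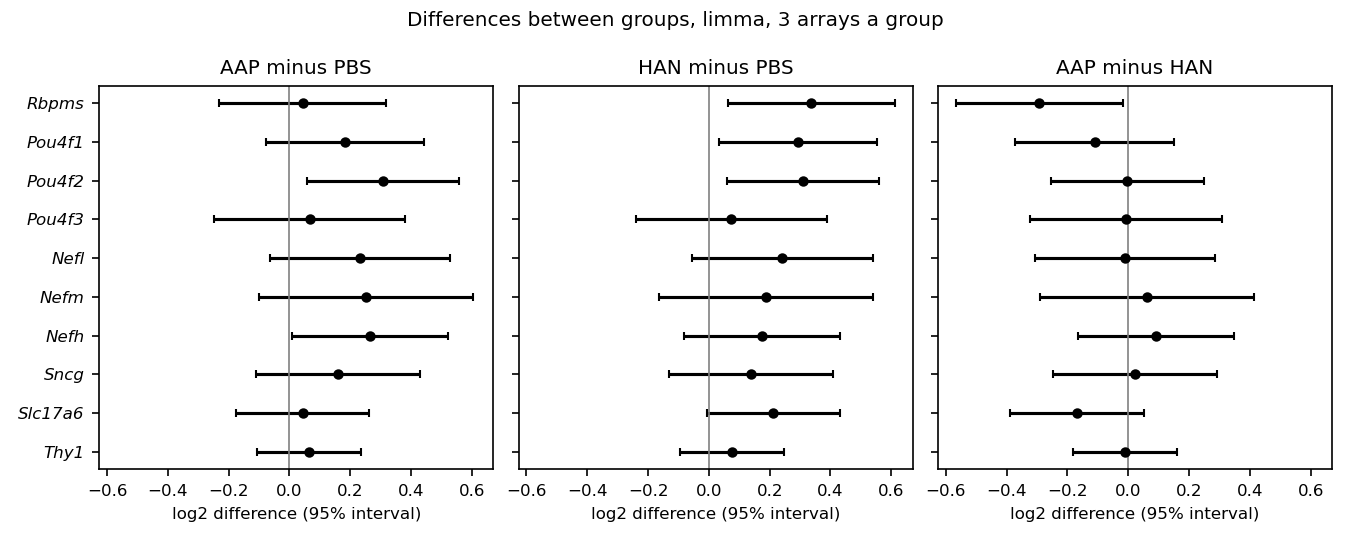
Log2 differences (horizontal axis) of the 10 genes for AAP minus PBS, HAN minus PBS and AAP minus HAN, with 95% intervals from limma (3 arrays a group). All points for the peptides against PBS lie to the right of 0, and 2 intervals in AAP minus PBS, 3 in HAN minus PBS and 1 in AAP minus HAN leave out 0.

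Counted as a group, 0 of the 10 genes passed in AAP minus PBS at an adjusted p under 0.05 (limma), where 0.00419% of all genes did, 1 gene that was higher (0.00419%) and 0% that were lower. At an unadjusted p under 0.05 there were 2 of the 10, Pou4f2 and Nefh, against 6.78% of all genes. The groups did not overlap for 2 of the 10, Pou4f1 and Pou4f2, both higher, against 6.44% of all genes higher and 5.53% lower. The difference was above 0 for 10 of 10, against 50.9% of all genes, and the median was 0.172, against 0.00321 over all genes.

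In HAN minus PBS, 0 of the 10 passed, where 0.00419% of all genes did (0.00419% higher and 0% lower). At an unadjusted p under 0.05 there were 3, Rbpms, Pou4f1 and Pou4f2, against 9.67% of all genes. The groups did not overlap for 4 of the 10, these 3 and Nefl, all higher, against 10.4% of all genes higher and 10.4% lower. The difference was above 0 for 10 of 10, against 51.4% of all genes, with a median of 0.201 against 0.00495.

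In AAP minus HAN, 0 of the 10 passed, as did 0% of all genes in either direction. Rbpms alone had an unadjusted p under 0.05, where 8.53% of all genes did. It was also the only one of the 10 whose groups did not overlap, lower in AAP, where 6.81% of all genes were lower and 7.51% higher. The difference was above 0 for 3 of 10, against 50.3% of all genes, and the median was -0.00875.

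The intervals give what these arrays could have missed. The lower ends for the 10 genes, as folds, ran from 0.842 to 1.04 in AAP minus PBS and from 0.846 to 1.04 in HAN minus PBS, and the upper ends from 1.18 to 1.52 and from 1.19 to 1.53. A fall to under 0.842 of the PBS level was therefore outside the interval of each of the 10 genes, at its brightest probe, in both peptide groups. No interval was computed for the other probes of Rbpms and Nefh, and another Rbpms probe was at -0.10 in AAP minus PBS. Each interval is for a single gene and comparison, not for all 10 genes jointly. The model behind them holds no term for slide, so they do not cover a shift between slides.

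The size of the shared direction depended on 1 PBS array. PBS 2 was below the PBS mean for 10 of 10 genes and was the lowest of all 9 arrays for 8, the exceptions being Nefl and Nefh, for which PBS 1 was lowest. Over all genes PBS 2 was the lowest array for 6.42%. AAP 3 was the highest array for 6 of the 10 genes and HAN 1 for 4, with no share over all genes counted. AAP 3 also had the lowest 75th percentile, 1340 intensity units, and was the lowest array for 19.9% of all genes. Before scaling, AAP 3 was the lowest array for all of those 6 genes except Nefm. Without PBS 2 the median over the 10 genes was 0.0808 in AAP minus PBS, with 7 above 0, and 0.137 in HAN minus PBS, with 9 above 0. The counts of genes whose groups do not overlap do not depend on PBS 2, since the highest PBS array decides them.

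Against the mean of the PBS arrays, 6 genes were higher in PBS 1, 0 in PBS 2 and 10 in PBS 3. The counts were 6, 10 and 8 in the AAP arrays and 10, 10 and 8 in the HAN arrays. PBS 3, with a median of 0.129 over the 10 genes, stood above AAP 1 at 0.0966 and close to AAP 2 at 0.145. The HAN arrays, at 0.277, 0.193 and 0.174, were all above PBS 3, as was AAP 3 at 0.242.

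**Figure D3:**
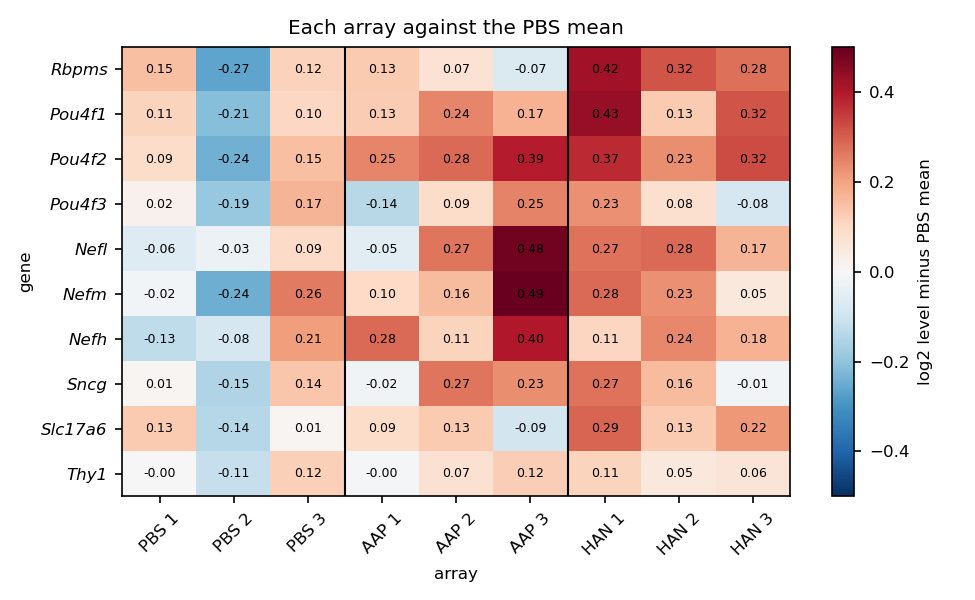
Log2 level of each of the 10 genes (rows) on each of the 9 arrays (columns) minus the mean of the 3 PBS arrays, with the value printed in each cell; red is above and blue below the PBS mean. The PBS 2 column is blue throughout, with a median of -0.17, and the HAN 1 column is red throughout, with a median of 0.277.

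Slide allows only part of each comparison to be made between arrays scanned together. On slide 1, AAP 1 minus the PBS mean had a median of 0.0966 over the 10 genes, with 6 above 0, against 44.3% of all genes; Nefh was at 0.28, Pou4f2 at 0.25, Nefl at -0.05 and Pou4f3 at -0.14. AAP 1, on which this rests, was the array with the highest muscle, cornea and pigment epithelium levels. On slide 2, AAP 2 and AAP 3 minus HAN 1 and HAN 2 had a median of 0.0261, with 7 above 0, against 59.1% of all genes, and Rbpms was at -0.37 and Slc17a6 at -0.19. No slide held both HAN and PBS. With slide as a fixed block, HAN minus PBS rests on the step through AAP and had a median of 0.116, with 6 of 10 above 0, and Nefl was then at -0.15. Slide and treatment thus cannot be told apart for HAN against PBS without that step. AAP 2, the AAP array with no raised muscle level, had all 10 genes above the PBS mean, with a median of 0.145, against -0.000192 over all genes. PBS 3 also had all 10 above that mean, with a median of 0.129, and AAP 2 had the highest lens level, 9.96.

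Over the 9 arrays, 44 of the 45 pairs among the 10 genes had a positive Pearson r, with a median of 0.638. These r values describe arrays that share a scaling, slides and groups, and carry no test. The share of positive pairs over all genes was not counted. For scale, 17.4% of all genes had a higher r with Nefl than Pou4f1 did (r = 0.505). Rbpms and Slc17a6 were closest (r = 0.924, Spearman rho = 0.817), with r = 0.879 without PBS 2 and 0.848 within groups. Slc17a6 was 6th of 23861 genes by its r with Rbpms, while Nefh and Slc17a6 had the lowest r of any pair (-0.0543).

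A second set of genes, Pou4f3, Sncg, Nefm, Thy1 and Nefl, followed one another more closely than they followed Rbpms. Pou4f3 and Sncg had r = 0.905, Nefm and Thy1 r = 0.90, and Nefl and Nefm, neighbours on chromosome 14 with only 1 pseudogene, Gm19216, annotated between them, r = 0.801 (0.814 without PBS 2). Nefl had r = 0.185 with Rbpms and 0.0701 with Slc17a6. By r with Nefl, Nefm was 473rd, Sncg 541st, Pou4f3 1006th and Thy1 1165th of 23861 genes. Nefh is not counted in this set, with r from 0.404 with Pou4f3 to 0.792 with Nefm. Pou4f1 was closer to Rbpms and Slc17a6 (r = 0.805 and 0.828) than to this second set, from 0.505 with Nefl to 0.766 with Thy1. Its r was 0.894 with Pou4f2, but its r with Rbpms was 0.135 without PBS 2 and HAN 1. Without PBS 2, 32 of 45 pairs were positive and the median r was 0.391, so the shared low level of that array carried part of the common direction. Within groups, 40 pairs were positive with a median of 0.583.

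**Figure D4:**
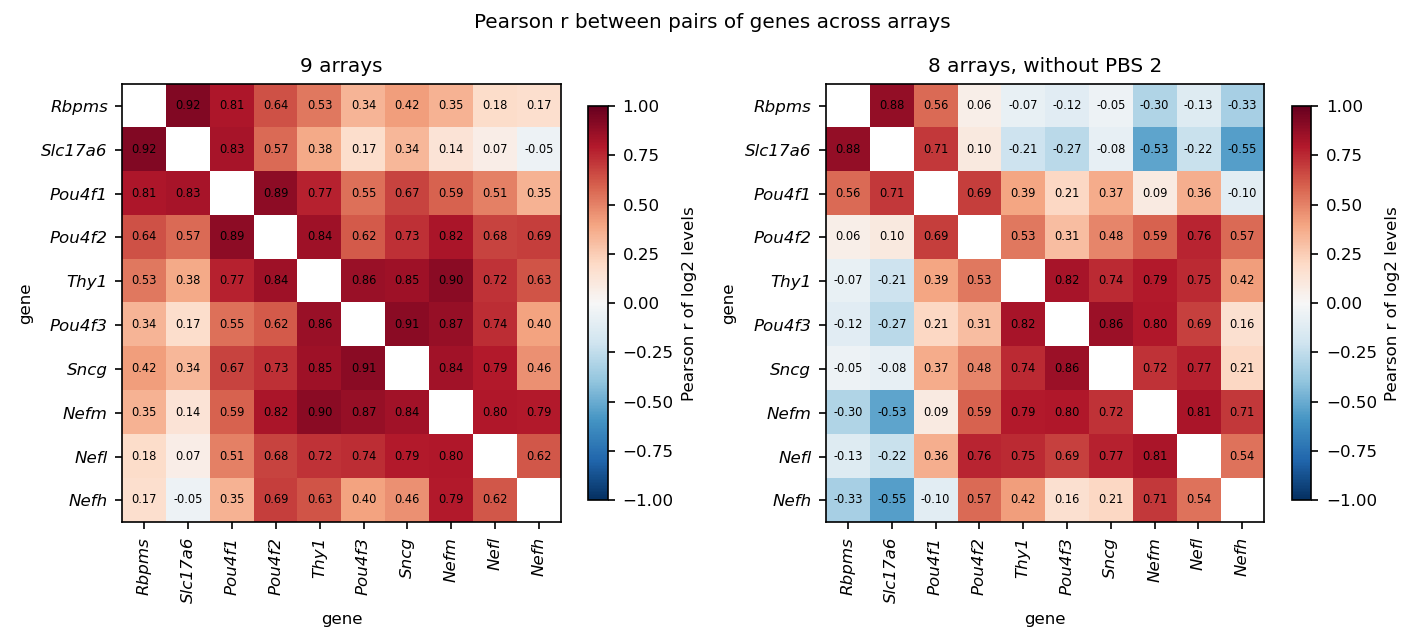
Pearson r of log2 levels between each pair of the 10 genes over all 9 arrays (left) and over the 8 arrays without PBS 2 (right); both axes list the genes in the same order and colour gives r from -1 to 1. Rbpms and Slc17a6 stay together (0.924 and 0.879), and Nefh and Slc17a6 are at -0.0543 and -0.547.

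Outside the 10 genes, the named genes most like Rbpms over the 9 arrays were Lingo4 (r = 0.944), Specc1 (0.935) and Dag1 (0.93). Those most like Nefl were Mettl2 (r = 0.972), Rab7 (0.95) and Prrc2c (0.949). In each list of 5, 2 more transcripts had no symbol.

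Other genes of ganglion cells, listed for comparison, did not all lie on the same side of PBS. Of 24 measured markers of ganglion cells and their subtypes, 0 passed in any comparison (limma). In AAP minus PBS 13 were above 0, 1 had an unadjusted p under 0.05 and the median was 0.0418. In HAN minus PBS 16 were above 0, 3 had an unadjusted p under 0.05 and the median was 0.0288. In AAP minus HAN 12 were above 0, 2 had an unadjusted p under 0.05 and the median was -0.00413.

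Spp1, osteopontin, which marks alpha ganglion cells and is also made by phagocytes, was at -1.56, -1.77 and -1.70 in PBS, at -2.49, -2.15 and -2.88 in AAP and at -2.30, -2.12 and -2.12 in HAN. All peptide arrays were below all PBS arrays, opposite to Pou4f2. AAP minus PBS was -0.83 (limma adjusted p = 0.625) and HAN minus PBS was -0.50 (limma adjusted p = 0.444). Of 8 microglia genes, 7 had lower means in each peptide group, with 0 passing (limma). The groups did not overlap for 5 genes in AAP minus PBS, all lower, against 5.53% of all genes lower. In HAN minus PBS they did not overlap for 4 lower and 1 higher, against 10.4% of all genes in each direction. Itgam, the brightest, went the other way, at 0.16 in AAP minus PBS and 0.42 in HAN minus PBS. It largely set the log2 summed level, 5.53 to 5.71 in PBS, 5.63 to 5.91 in AAP and 5.95 to 6.02 in HAN. The part of those cells in the Spp1 values was not tested. Adcyap1, the neuropeptide of light-sensing ganglion cells, was at -0.25 in AAP minus PBS and -0.40 in HAN minus PBS (limma adjusted p = 0.730 and 0.398).

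Isl2, a transcription factor of ganglion cells that project across the midline, was at 0.25 in AAP minus PBS and 0.27 in HAN minus PBS (limma adjusted p = 0.733 and 0.529). Of 14 measured genes of the ganglion cell transcription factor network, 11 were above 0 in AAP minus PBS and 12 in HAN minus PBS, with medians of 0.0965 and 0.115, 0 passing and 1 and 2 at an unadjusted p under 0.05 (limma). Part of this list, Isl2 among it, also belongs to the markers counted above, so the counts share genes. Irx2 was at 0.65 in HAN minus PBS (limma adjusted p = 0.433), with HAN 3 the highest array at -2.59. Sox11 was at -0.49 in AAP minus PBS (limma adjusted p = 0.727).

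The other cytoskeletal genes of axons, 18 measured of 20, were spread about 0. Their median was 0.000832 in AAP minus PBS, with 10 above 0, and 0.0221 in HAN minus PBS, with 12 above 0. None passed (limma), with 0 and 1 at an unadjusted p under 0.05. Ina, alpha-internexin, which joins neurofilaments, was at 0.05 and 0.12, and Prph, peripherin, at -0.14 and 0.06. The microtubule gene Tuba4a was at -0.15 in HAN minus PBS (limma adjusted p = 0.512).

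The paralogs of the 10 genes, some of them also in the lists above, were measured too. Of these, 0 of 7 passed in any comparison (limma), with 0 at an unadjusted p under 0.05. Rbpms2, which marks the same cells as Rbpms, was at 0.35 in AAP minus PBS (-0.000739 to 0.71) and 0.23 in HAN minus PBS (-0.12 to 0.59). Its 3 AAP arrays were above all PBS arrays, unlike those of Rbpms. Slc17a7, the glutamate transporter of photoreceptors and bipolar cells, was at 0.13 and -0.03, and Slc17a8, that of an amacrine type, at 0.05 and 0.11. Sncb, beta-synuclein, was at 0.14 and 0.08.

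Other retinal cells were followed through their own genes. All 8 rod genes had lower means in HAN than in PBS, with a median of -0.166 and 0 passing (limma; 1 at an unadjusted p under 0.05), and their log2 summed level was 9.26 to 9.51 in PBS, 9.25 to 9.62 in AAP and 9.17 to 9.25 in HAN. The median of the 10 amacrine genes, whose cells share the ganglion cell layer, was -0.0363 in AAP minus PBS and 0.0259 in HAN minus PBS. Of 10 oligodendrocyte genes, which would mark attached optic nerve, Olig1 and Olig2 had no probe well above background throughout any group. The part of any of these cells in the values of the 10 genes was not tested.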

How the data were processed

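Total RNA of pooled retinas was hybridised to 1-colour Agilent arrays. The deposited values are processed intensities, background-corrected by the authors' Feature Extraction 11.0.1.1 run with protocol GE1_1100_Jul11, per the file headers, with array annotation on mm9. The deposited value table held the same linear intensity, equal within 1e-04 for at least 99.7% of probes, with no centring, and column medians of 165 to 298.

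Spots marked as outliers (103 to 160 an array) and controls were left out, none was saturated, spots of a probe were averaged, and log2 intensity was reduced by its array's 75th percentile. Probes well above background on all arrays of at least 1 group were kept, and the brightest stood for a gene. Of the probes, 26055 matched 19751 symbols through RefSeq accessions.

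Differences were tested with limma 3.58.1 in R 4.3.3, in 1 model over 9 arrays (6 residual degrees of freedom), two-sided. The p-values were adjusted over 23862 genes by Benjamini-Hochberg, and 0.05 was the threshold. The p-values measure the spread between pools. On data simulated for AAP minus PBS, 26% of 50 genes changed by 0.5 on the log2 scale were called, and 62% of those changed by 1, with 6 false calls. Changes of 2 and 4 were simulated too, with 90% and 92% called. An adjusted p depends on how many genes change and by how much. In the measured AAP minus PBS data 1 gene was called, so these shares need not hold there. The 10 genes and the lists were chosen with earlier results of these data known. The text names all 10 genes, up to 4 genes with the smallest p of each other list, the paralogs of the 10 (1 of them is not reported here), and the 5 genes nearest in profile to Rbpms and to Nefl. Alternatives covered background correction, scaling, probe filters, slide and replicate blocks, array weights and left-out arrays. Figures used Python 3.11.15.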

Additional observations from a re-analysis of the deposited data

How the results depend on the processing

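Over 21 alternatives, the count of the 10 genes called was 0 in every comparison, as was that of the other ganglion cell markers, and the lowest adjusted p of any of the 10 was 0.164, for Rbpms in HAN minus PBS. Of 630 repeats of a gene's difference, 580 kept their direction and 50 reversed, none of them with a p under 0.05. The reversals were 11 in AAP minus PBS, 7 in HAN minus PBS and 32 in AAP minus HAN. Part of the 580 could not reverse, because the setting left the difference as it was. Leaving out an array of the group not compared is an example. The median over the 10 genes ran from 0.0808 to 0.232 in AAP minus PBS, from 0.116 to 0.285 in HAN minus PBS and from -0.0786 to 0.0546 in AAP minus HAN.

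With slide as a fixed block, AAP minus PBS was -0.14 for Pou4f3, -0.0534 for Nefl, -0.0193 for Sncg and -0.0049 for Thy1. HAN minus PBS was -0.156, -0.151, -0.0556 and -0.0218 for the same genes, and AAP minus HAN was 0.0352 for Pou4f2, 0.0165 for Pou4f3, 0.0977 for Nefl and 0.0169 for Thy1. With slide as a random block (correlation 0.109), Pou4f2 was at 5.92e-05 in AAP minus HAN. Normexp background correction, chosen after seeing the data in place of one planned on mean signals, which the files used here do not hold, gave -0.0519 for Rbpms in AAP minus PBS, -0.0524 for Thy1 in HAN minus PBS, and 0.112 for Nefl and 0.107 for Thy1 in AAP minus HAN. It also gave 0.638 for Pou4f3 in HAN minus PBS and -0.487 in AAP minus HAN, in the same direction as before but larger. The mean of all probes gave -0.00793 for Rbpms in AAP minus PBS. Quantile normalization gave 0.00244 for Pou4f2, 0.00947 for Pou4f3 and -0.022 for Sncg in AAP minus HAN. Array weights gave -0.015 for Pou4f3 in AAP minus PBS, and -0.0294 for Nefm and -0.0355 for Sncg in AAP minus HAN. With AAP 2 as the only AAP array, also chosen after seeing the data and assumed to vary like the other groups, AAP minus HAN was 0.0158 for Pou4f3, 0.0266 for Nefl, -0.0288 for Nefm and -0.0623 for Nefh. The cause of these reversals was not tested.

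Leaving out 1 array at a time gave, in AAP minus PBS, ranges of -0.0884 to 0.119 for Rbpms, -0.029 to 0.17 for Pou4f3 and -0.0268 to 0.111 for Slc17a6, and in HAN minus PBS -0.0214 to 0.159 for Pou4f3. In AAP minus HAN they were -0.0453 to 0.0282 for Pou4f2, -0.0991 to 0.0956 for Pou4f3, -0.134 to 0.133 for Nefl, -0.058 to 0.138 for Nefm, -0.0536 to 0.112 for Sncg and -0.0403 to 0.0227 for Thy1.

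The count of all genes called was 1 in AAP minus PBS, and 0 with normexp, quantile normalization, median scaling or no filter on dim probes, 45 with slide as a fixed block, 52 with AAP 2 alone and 0 to 42 with an array left out (42 without AAP 2). In HAN minus PBS it was 1, and 0 with normexp, 2 with slide as a fixed block, 3 with array weights and 1 to 10 with an array left out (10 without HAN 1). In AAP minus HAN it was 0, with 48 for AAP 2 alone and 0 to 27 with an array left out (27 without AAP 2). With the replicate number as a block, the counts in AAP minus PBS and in HAN minus PBS were 0 and the medians over the 10 genes stayed at 0.172 and 0.201; same-numbered arrays deviated together (r above 0.1) in 3 of 9 pairs, so the numbers were not taken as a pairing.

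The number of arrays limits precision. The half-width of the 95% interval was 1.18-fold for the median gene and 1.13-fold to 1.28-fold for the 10 genes.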
